A study of Mus musculus with 12 samples.

Results

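The 10 genes followed here belong to the TREM and CD300 receptor families with their adaptors: Trem1, Trem2, Trem3, Treml2, Treml4, Cd300a, Cd300lb, Cd300lf, Tyrobp and Hcst. They were the rows of the deposited count table whose Ensembl identifiers map to these 10 symbols, out of 57010 genes in the table. A total of 9 of the 10 passed the filter on low counts and were among the 15943 genes tested. Treml2 did not pass, and is given by its level only. Trem3 and Treml4 passed through the challenged groups, since 1 of 6 naive libraries for Trem3 and 2 of 6 for Treml4 exceeded the minimum of 0.755 CPM (counts scaled to library size).

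Large peritoneal macrophages reside in the peritoneal cavity and were sorted here from female mice as cells with high F4/80 and low MHC class II. Mice were wild-type (WT) or lacked Tim4 (Tim4KO), a phosphatidylserine receptor encoded by Timd4. They were either naive or had received ID8 cells, a mouse ovarian tumour line made to express ZsGreen and OVA (ID8ZGO), by intraperitoneal injection 24 h earlier. The 4 groups, called WT naive, WT ID8, Tim4KO naive and Tim4KO ID8, held 3 bulk RNA-seq libraries each. Injected mice were 8 weeks old, and the age of the naive mice is not given in the sources used here. Challenged macrophages were sorted as ZsGreen-positive and naive ones were not, so challenge and selection for uptake cannot be told apart. No label says whether the libraries of a group came from separate mice, so p-values measure the spread between these libraries, which may be technical.

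TREM and CD300 proteins are immunoglobulin-like receptors of myeloid cells. Most activating members have short tails and signal through an adaptor. Tyrobp (DAP12) carries an ITAM, a tyrosine motif that recruits the kinase Syk, and Hcst (DAP10) carries a YINM motif that recruits PI3 kinase. TREM1 amplifies inflammatory signals. TREM2 senses lipids and apoptotic material and is known for its role in phagocytes that handle lipid. Several CD300 receptors bind phospholipids that dying cells expose. Cd300a and Cd300lf carry ITIMs, inhibitory motifs that recruit phosphatases.

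The 250 bases before the RefSeq start site are shown for the 3 genes with an entry that were higher after challenge in both genotypes, Trem1, Treml4 and Cd300lf, and for Hcst, which was lower in both. The mouse RefSeq tables on GRCm38.p6 held such a window for 7 of the 10 genes. Each is written 5′ to 3′ on the gene's strand, and capitals mark GAGGAA or its reverse complement, the core bound by PU.1, a transcription factor of myeloid cells.
Trem1 (chr17:48232489-48232738, plus strand): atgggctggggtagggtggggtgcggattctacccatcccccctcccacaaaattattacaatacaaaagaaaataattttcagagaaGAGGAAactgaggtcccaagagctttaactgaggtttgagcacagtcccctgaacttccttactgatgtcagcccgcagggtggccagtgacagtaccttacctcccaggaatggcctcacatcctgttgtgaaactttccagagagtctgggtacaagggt
Treml4 (chr17:48264045-48264294, plus strand): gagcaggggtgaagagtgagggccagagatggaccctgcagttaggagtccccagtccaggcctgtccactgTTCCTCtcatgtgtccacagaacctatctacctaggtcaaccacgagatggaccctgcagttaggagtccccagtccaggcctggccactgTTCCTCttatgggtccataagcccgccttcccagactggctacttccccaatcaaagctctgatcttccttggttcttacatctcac
Cd300lf (chr11:115133993-115134242, minus strand): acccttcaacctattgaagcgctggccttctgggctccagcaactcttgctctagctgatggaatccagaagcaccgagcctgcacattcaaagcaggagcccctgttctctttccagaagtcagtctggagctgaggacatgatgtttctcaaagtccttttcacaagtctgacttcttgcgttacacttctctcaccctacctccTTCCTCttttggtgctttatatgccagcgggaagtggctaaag
Hcst (chr7:30419855-30420104, minus strand): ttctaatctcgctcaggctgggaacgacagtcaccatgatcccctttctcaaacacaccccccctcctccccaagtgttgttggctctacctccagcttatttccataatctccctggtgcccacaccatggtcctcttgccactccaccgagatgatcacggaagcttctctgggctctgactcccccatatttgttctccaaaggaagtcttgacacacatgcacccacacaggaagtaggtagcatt

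The match in Trem1 lies at -162 to -157 from the start, that in Cd300lf at -43 to -38, and those in Treml4 at -178 to -173 and -87 to -82. The Hcst window held none. Of the 7 windows available 5 held this motif, among them those of Cd300a and Trem2, so a match did not set apart the genes that rose. Among all 32817 RefSeq windows of this length, 23.3% held the motif on either strand. TGANTCA (AP-1, 6.75% of windows), TTGCNNAA (C/EBP, 9.57%) and an NF-kB motif (1.41%) were searched on both strands as well, and none of the 4 printed windows held a match. Among the other 3 windows, that of Trem2 held the AP-1 motif, that of Cd300a the C/EBP motif and that of Cd300lb the NF-kB motif. A match is a description of letters and not evidence of binding.

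Library totals ran from 7358559 to 23170244 counts. A floor of 3 counts came to 0.137 to 0.399 CPM in these libraries and covers counting error only. The targeted gene Timd4 stood at 1320 ± 159 CPM in WT cells when naive and 1150 ± 286 CPM when challenged (SD, n = 3), and at 7.41 ± 0.262 and 1.72 ± 0.291 CPM in Tim4KO cells. Macrophage genes were present throughout: mean Adgre1, which encodes F4/80, was 3160 to 4750 CPM and mean Gata6, the factor that defines these cells, 136 to 179 CPM over the 4 groups. Library WT ID8 3 stood apart. It had the largest total, and 1620 CPM summed over 10 cell cycle genes against 59.8 to 236 CPM in the other libraries. Olfactory and vomeronasal receptor genes, a measure of background reads, held 5.91 CPM in it against 40.4 to 886 CPM in the others. By condition this measure was 273 to 886 CPM in naive and 5.91 to 368 CPM in challenged libraries.

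**Figure D1:**
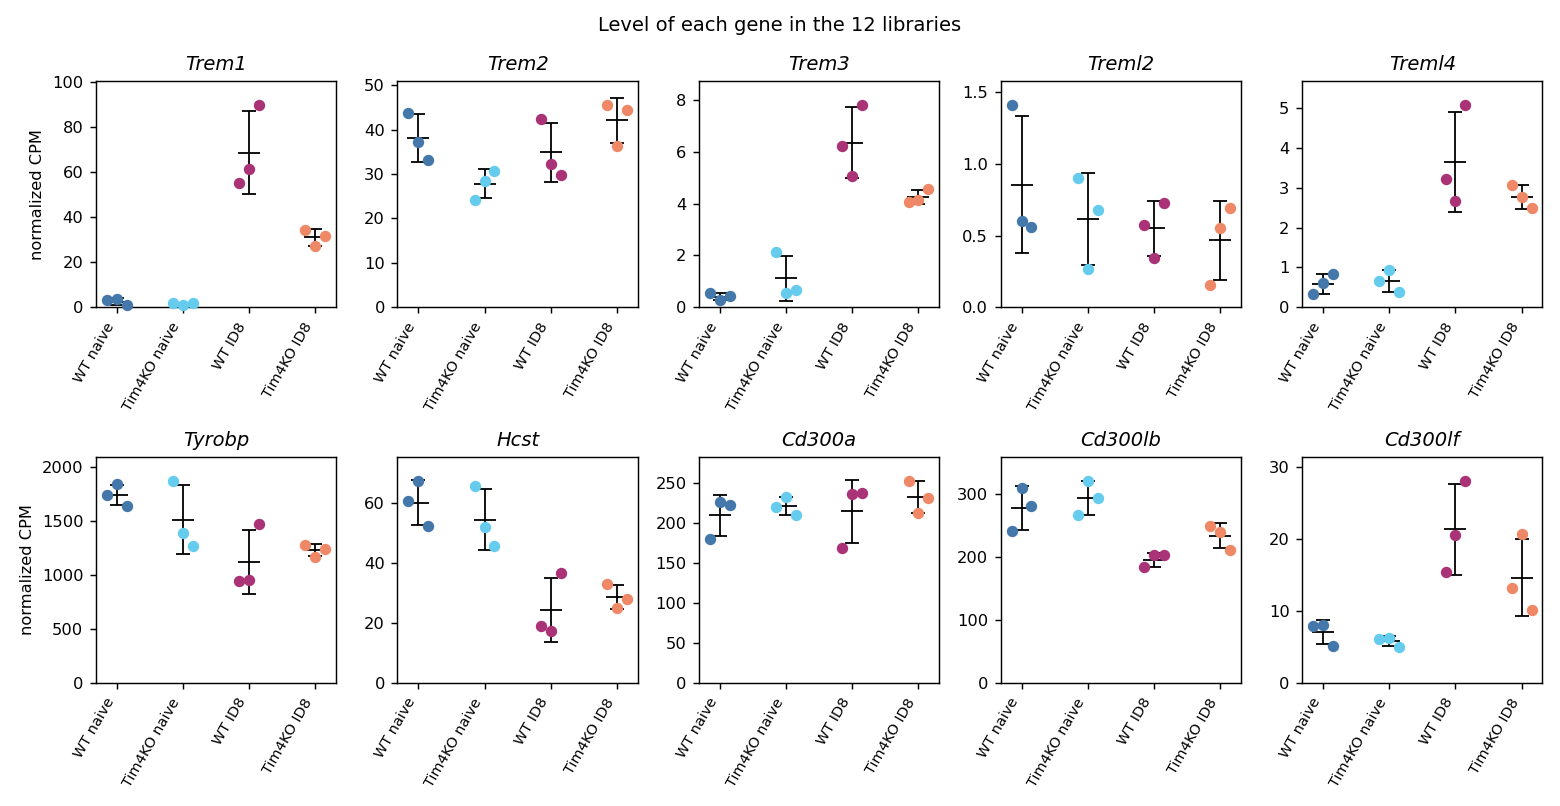
Normalized CPM of the 10 genes in each of the 12 libraries, 1 panel per gene with its own axis from 0; points are libraries, long bars the group mean and error bars the SD (n = 3). Trem1 lies between 0.908 and 3.47 CPM in the 6 naive libraries and between 27.0 and 89.6 CPM in the 6 challenged ones, while Tyrobp stays at 944 CPM or more throughout.

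Tyrobp was the most abundant of the 10 transcripts in every group and Treml2 the least, when CPM was divided by exonic length. In WT naive cells Tyrobp had 2610 ± 144 CPM per kb (SD, n = 3). Cd300lb followed at 94.8 ± 11.8 and Hcst at 83.4 ± 10.4 CPM per kb, which did not differ beyond their spread. Cd300a had 44.1 ± 5.51 and Trem2 7.7 ± 1.08 CPM per kb. The other 5 were low in WT naive cells, from Cd300lf at 1.36 ± 0.321 to Treml2 at 0.174 ± 0.0973 CPM per kb, and each of them overlapped its neighbour in this order within 1 SD.

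By exonic length the order after challenge changed below Cd300lb. In WT ID8 cells Cd300a (45.1 ± 8.35 CPM per kb), Hcst (33.7 ± 14.9) and Trem1 (22.9 ± 6.14) followed Tyrobp and Cd300lb, and each overlapped the next within 1 SD. Trem2 (7.05 ± 1.36 CPM per kb), Trem3 (6.4 ± 1.38) and Cd300lf (4.14 ± 1.23) came next, again with overlap between neighbours, and then Treml4 at 1.83 ± 0.629. The order depended on the length used. With the longest coding transcript, chosen as an alternative after the data were seen, Hcst (136 CPM per kb) was above Cd300lb (96.1) in WT naive cells and below it (55.0 against 67.9) but above Cd300a in WT ID8 cells. Trem2 was then at 25.5 CPM per kb in Tim4KO naive and 38.7 in Tim4KO ID8 cells, against 5.61 and 8.51 by exonic length. In the challenged libraries other than WT ID8 3 the order of Trem1 and Trem2 turned as well. With the exonic length over all transcripts (4946 bases for Trem2) the ratio of Trem1 to Trem2 was 2.14, 3.13 and 4.96 in the WT ID8 libraries and 1.25, 1.23 and 1.18 in the Tim4KO ID8 libraries. With the longest coding transcript (1088 bases for Trem2) it was 0.472, 0.688 and 1.09 and then 0.275, 0.271 and 0.259. In the naive libraries Trem2 was above Trem1 with either length, with ratios of 0.0452 to 0.154 by exonic length.

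Challenge was accompanied by changes in both directions among these genes. Trem3 and Treml4 passed the filter only through the challenged libraries where they are high, so they are left out of the next counts. Of the other 7 tested genes, 5 passed an adjusted p of 0.05 in WT cells in edgeR's quasi-likelihood test, 2 higher and 3 lower, against 31.8% of all 15943 genes (19.5% higher, 12.3% lower). In Tim4KO cells 4 of the 7 passed, 3 higher and 1 lower, against 16.6% of all genes (11.5% higher, 5.06% lower). The median log2 change of the 7 genes was -0.13 in WT and 0.07 in Tim4KO cells, beside -0.04 and -0.05 over all genes. Trem3 and Treml4 were called higher in both genotypes, which makes 7 and 6 calls among the 9 tested. Trem1 and Cd300lf were called in both genotypes under each alternative analysis run. So were Trem3 and Treml4, but all alternatives except that with no filter let them in through the challenged libraries. In these bulk data, fewer cells that hold a transcript and less of it per cell cannot be told apart.

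**Figure D2:**
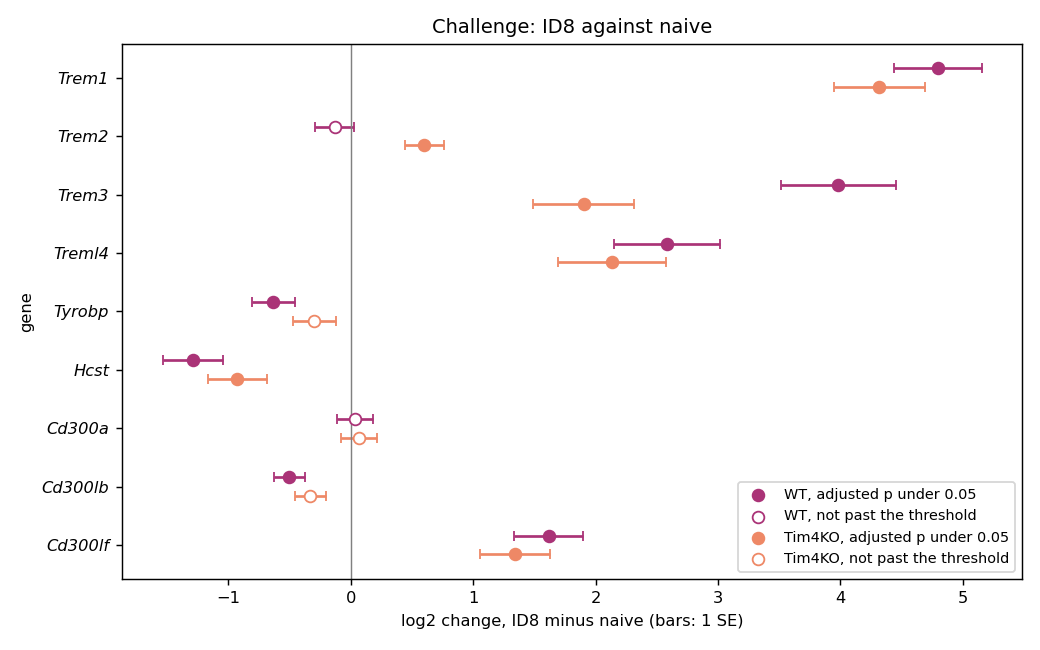
Log2 change of the 9 tested genes from naive to ID8 in WT and in Tim4KO cells, with bars of 1 SE from edgeR; filled points passed an adjusted p of 0.05. Trem1 shows the greatest change of the 9 in both genotypes, 4.80 and 4.32, and Hcst is the only gene that is lower past the threshold in both.

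Among the receptors that signal through Tyrobp, Trem1 rose the most. Its level was 3.14, 3.47 and 0.908 CPM in WT naive libraries 1 to 3 and 55.1, 61.2 and 89.6 CPM in WT ID8 libraries 1 to 3. In Tim4KO cells it was 1.72, 1.07 and 1.69 CPM in the naive libraries and 34.4, 27.0 and 31.8 CPM in the ID8 libraries. Every challenged library lay far above every naive one, from 293 counts upward against 52 counts or fewer. The log2 change was 4.80 in WT (SE 0.36, 27.8-fold, adjusted p = 3.12e-06) and 4.32 in Tim4KO cells (SE 0.37, 20-fold, adjusted p = 1.77e-05, edgeR). Without library WT ID8 3 the WT change was 4.58 (adjusted p = 8.4e-08).

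Trem2, the lipid-sensing receptor, did not follow Trem1. In WT cells it stood at 43.8, 37.3 and 33.2 CPM in naive and 42.5, 32.3 and 29.8 CPM in ID8 libraries, which overlapped, with a log2 change of -0.13 (SE 0.16, edgeR adjusted p = 0.536). In Tim4KO cells it stood at 24.2, 28.5 and 30.6 CPM in naive and 45.5, 36.3 and 44.5 CPM in ID8 libraries. The 2 Tim4KO groups did not overlap, and Trem2 rose by a log2 change of 0.60 (SE 0.16, 1.52-fold, adjusted p = 0.0191). That call was lost with upper-quartile scaling (0.48, adjusted p = 0.0789), and without Tim4KO naive 1 (adjusted p = 0.0534), Tim4KO naive 2 (0.0529), Tim4KO ID8 1 (0.0734) or Tim4KO ID8 3 (0.0618).

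Trem3, a mouse activating receptor, was near the detection floor in naive cells. It had 5, 4 and 6 counts in the WT naive libraries (0.542, 0.267 and 0.419 CPM) and 54, 59 and 171 counts in the WT ID8 libraries (6.21, 5.07 and 7.8 CPM). Tim4KO naive libraries had 26, 4 and 12 counts (2.13, 0.533 and 0.676 CPM) and Tim4KO ID8 libraries 53, 45 and 79 counts (4.07, 4.15 and 4.55 CPM). Challenged libraries were above naive ones in both genotypes, and Tim4KO naive 1 was the highest of the naive libraries. Trem3 rose by a log2 change of 3.98 in WT (SE 0.47, adjusted p = 3.66e-05) and 1.90 in Tim4KO cells (SE 0.41, adjusted p = 0.00584). Without Tim4KO naive 1 the Tim4KO change was 2.78.

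Cd300lb, an activating CD300 receptor, was abundant and went the other way in WT cells. Its level was 241, 309 and 280 CPM in WT naive and 183, 202 and 202 CPM in WT ID8 libraries, with no overlap, and it fell by 0.50 on the log2 scale (SE 0.13, adjusted p = 0.00831, edgeR). The WT call was lost with no filter on low counts (adjusted p = 0.0857), without WT naive 2 (0.074) and without WT ID8 1 (0.062). In Tim4KO cells 266, 320 and 293 CPM in naive stood beside 249, 239 and 211 CPM in ID8 libraries, a log2 change of -0.33 (SE 0.13, adjusted p = 0.0889) that missed the threshold although the groups did not overlap. It passed in 4 of 20 alternatives, among them DESeq2 (-0.38, adjusted p = 0.0118) and upper-quartile scaling (-0.45, adjusted p = 0.0118).

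Of the TREM-like receptors, Treml4, known for binding dead cells, rose from a low level. It had 3, 9 and 12 counts in WT naive libraries (0.325, 0.601 and 0.838 CPM) and 28, 31 and 111 counts in WT ID8 libraries (3.22, 2.66 and 5.07 CPM). In Tim4KO cells it had 8, 7 and 7 counts when naive (0.656, 0.932 and 0.394 CPM) and 40, 30 and 43 counts when challenged (3.07, 2.77 and 2.48 CPM). Naive and challenged libraries did not overlap in either genotype. The log2 change was 2.59 in WT (SE 0.43, adjusted p = 0.000543) and 2.13 in Tim4KO cells (SE 0.44, adjusted p = 0.00452). Treml2 had 2 to 16 counts in any library and 0.466 to 0.856 CPM as group means, and no change was detectable at this depth.

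Both adaptors were lower after challenge in WT cells, while the receptors Trem1 and Trem3 rose. Tyrobp stood at 1740, 1840 and 1640 CPM in WT naive and 944, 953 and 1470 CPM in WT ID8 libraries. These groups did not overlap, and Tyrobp fell by 0.63 on the log2 scale (SE 0.18, 1.55-fold, adjusted p = 0.015). The call was lost without WT naive 2 (adjusted p = 0.0633), WT ID8 1 (0.0763) or WT ID8 2 (0.0859), whereas without WT ID8 3, the highest challenged library, the change was -0.85 (adjusted p = 0.000273). In Tim4KO cells Tyrobp was 1870, 1390 and 1270 CPM when naive and 1280, 1170 and 1240 CPM when challenged, which overlapped, with a log2 change of -0.30 (SE 0.18, adjusted p = 0.287).

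Hcst fell in both genotypes. It stood at 60.8, 67.4 and 52.5 CPM in WT naive and 19.1, 17.2 and 36.6 CPM in WT ID8 libraries, and at 65.7, 51.9 and 45.8 CPM in Tim4KO naive and 32.9, 24.9 and 28.1 CPM in Tim4KO ID8 libraries. Naive and challenged libraries did not overlap in either genotype. The log2 change was -1.29 in WT (SE 0.25, 2.44-fold lower, adjusted p = 0.00178) and -0.93 in Tim4KO cells (SE 0.24, 1.9-fold lower, adjusted p = 0.0203). The Tim4KO call was lost without Tim4KO naive 1 (adjusted p = 0.0753), Tim4KO naive 2 (0.0648), Tim4KO ID8 2 (0.131) or Tim4KO ID8 3 (0.0751), and the WT change without WT ID8 3 was -1.71. Per length, Tyrobp exceeded Hcst 29.0 to 33.9 times in the 6 naive libraries and 42.2 to 60 times in the 6 challenged ones, without overlap. By coding transcript the ratio was 19.8 to 23.2 and 28.8 to 41.1, again without overlap.

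The inhibitory receptors split. In WT cells Cd300a stood at 179, 226 and 222 CPM when naive and 168, 236 and 237 CPM when challenged. In Tim4KO cells it stood at 220, 232 and 210 CPM when naive and 252, 212 and 231 CPM when challenged. All 4 groups overlapped. Its log2 change was 0.03 in WT (SE 0.15, edgeR adjusted p = 0.872) and 0.07 in Tim4KO cells (SE 0.15, adjusted p = 0.789), and its sign changed with the scaling, to -0.21 and -0.05 with upper-quartile factors. Cd300lf was 7.91, 8.01 and 5.1 CPM in WT naive and 15.4, 20.5 and 28 CPM in WT ID8 libraries. In Tim4KO cells it was 6.07, 6.26 and 5.01 CPM when naive and 13.2, 20.6 and 10.1 CPM when challenged. With no overlap in either genotype, Cd300lf rose by 1.62 on the log2 scale in WT (SE 0.28, 3.07-fold, adjusted p = 0.000713) and by 1.34 in Tim4KO cells (SE 0.28, 2.53-fold, adjusted p = 0.00526). The ratio of Cd300lf to Cd300a per exonic length was 0.0211 to 0.0407 in naive and 0.0401 to 0.109 in challenged libraries, and per coding transcript 0.0566 to 0.109 and 0.107 to 0.291.

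Loss of Tim4 gave no call among the 9 tested genes, in naive or in challenged cells. Few genes passed at all: 7 of 15943 in naive cells (0.0439%) and 9 of 15943 in ID8 cells (0.0565%), while 999 and 1935 genes had an unadjusted p under 0.05. Of the 9 genes, 2 had an unadjusted p under 0.05 in naive and 1 in ID8 cells by edgeR. DESeq2 called 0 of the 9 in naive cells, where it called 0.371% of all genes, and 1 in ID8 cells, where it called 2.42%. The genotype comparisons use the same libraries as the challenge comparisons, so their values are not independent of those above.

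**Figure D3:**
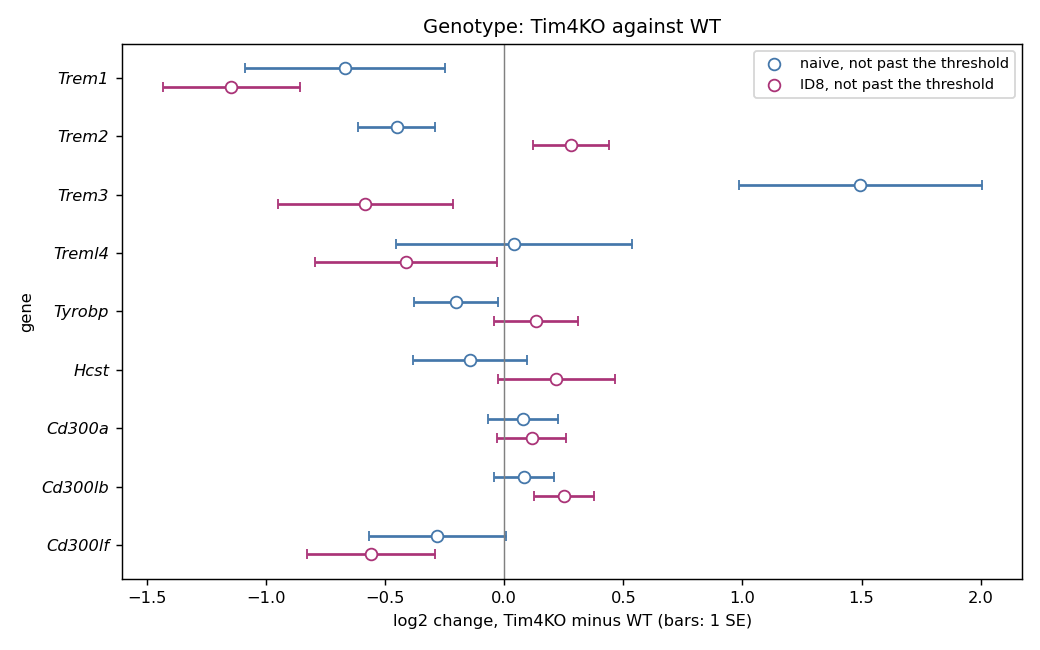
Log2 difference of the 9 tested genes between Tim4KO and WT cells, in naive and in ID8 cells, with bars of 1 SE from edgeR; open points did not pass an adjusted p of 0.05. The greatest distances from 0 are Trem3 in naive cells at 1.49 and Trem1 in ID8 cells at -1.15.

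In challenged cells the greatest difference was in Trem1. The WT ID8 libraries (55.1 to 89.6 CPM) did not overlap with the Tim4KO ID8 libraries (27.0 to 34.4 CPM), and the log2 difference was -1.15 (SE 0.29, 2.21-fold lower in Tim4KO, unadjusted p = 0.00168, edgeR adjusted p = 0.179). Trem1 was called with no filter on low counts (-1.20, adjusted p = 5.54e-07), by DESeq2 (-1.17, adjusted p = 0.0115) and without WT naive 3 (-1.15, adjusted p = 0.0379). With no filter 264 genes were called, 0.52% of the 50770 then tested, which include genes with few counts. Without WT ID8 3, the library with the highest Trem1, the difference was -0.90 (adjusted p = 0.0612), and over all alternatives the adjusted p ran from 5.54e-07 to 0.696. Trem3 (-0.58, SE 0.37, adjusted p = 0.529) and Cd300lb (0.25, SE 0.13, adjusted p = 0.435) also had groups without overlap in ID8 cells. The share of all genes without overlap between such groups was not computed, so a lack of overlap is a description only. Hcst differed by 0.22 (SE 0.25, adjusted p = 0.743), and by 0.67 without WT ID8 3 (adjusted p = 0.0288). Leaving out that library raised the number of all genes called in this comparison from 9 to 997.

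In naive cells Trem2 was lower and Trem3 higher in Tim4KO libraries, neither past the threshold after adjustment. The log2 difference of Trem2 was -0.45 (SE 0.16, unadjusted p = 0.0133, edgeR adjusted p = 0.695), with 24.2 to 30.6 CPM in Tim4KO against 33.2 to 43.8 CPM in WT. That of Trem3 was 1.49 (SE 0.51, unadjusted p = 0.0102, adjusted p = 0.662), and 0.64 without Tim4KO naive 1. The other 7 tested genes differed by -0.67 (Trem1) to 0.08 (Cd300a and Cd300lb) on the log2 scale.

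The interaction sets the 2 challenge responses against each other (Tim4KO minus WT) and was called for 0 of the 9 genes and 0 of 15943 genes (0.0%) by edgeR, although 1186 genes had an unadjusted p under 0.05. Trem2 (0.73, SE 0.23, unadjusted p = 0.00566) and Trem3 (-2.08, SE 0.63, unadjusted p = 0.00478) were the 2 of the 9 below that level, both with an adjusted p of 0.668. Without Tim4KO naive 1 the Trem3 value was -1.24. So the smaller Trem3 response and the rise of Trem2 in Tim4KO cells were not shown to differ from the WT responses. DESeq2 and every other alternative run also called 0 of the 9.

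Other genes of these pathways were taken from 7 lists, with counts of genes past the edgeR threshold in WT and Tim4KO challenge comparisons. Over all genes 19.5% were higher and 12.3% lower in WT, and 11.5% higher and 5.06% lower in Tim4KO cells, and the counts below stand beside these shares. Among 7 tested of 11 other TREM and CD300 family genes, 3 were higher and 1 lower in WT, and 3 higher and 1 lower in Tim4KO cells. Cd300c2 rose by 0.96 in WT and by 0.66 in Tim4KO cells (adjusted p = 0.00367 and 0.0457), and its Tim4KO call was lost in 14 of 20 alternatives. Cd300ld rose by 0.58 and 0.40 (adjusted p = 0.00403 and 0.0494), and its WT call was lost in the WT fit with the replicate number as a block (adjusted p = 0.0685). Cd300e rose by 1.83 and 1.68 (adjusted p = 0.00455 and 0.0209) from a low level. It had 13 to 14 counts in the WT naive libraries and 3 to 10 in the Tim4KO naive libraries. Its Tim4KO call was lost in 4 of 20 alternatives, among them limma voom (adjusted p = 0.106). Cd300ld3 fell by 1.84 in WT and fell by 1.08 in Tim4KO cells (adjusted p = 9.72e-05 and 0.00648). The Cd300ld genes are close paralogs, and reads may have been split between them. The list's median was -0.07 in WT and 0.40 in Tim4KO cells, and the Tim4KO count of 4 ran from 0 (without Tim4KO naive 3) to 6. It was 2 or fewer without any 1 of WT naive 1, 2 or 3, Tim4KO naive 2, Tim4KO ID8 1 or Tim4KO ID8 3. The WT count of 4 was 2 in the WT fit with the replicate block and 1 with the covariate of background reads.

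Among 13 tested of 16 other receptors that pair with such adaptors, with Fcer1g, 2 were higher and 3 lower in WT cells and 2 lower in Tim4KO cells. Clec5a, which pairs with Tyrobp, fell by 0.96 in WT (adjusted p = 0.00359) and fell by 1.22 in Tim4KO cells (adjusted p = 0.00149). Sirpb1c fell by 1.33 and 1.63 (adjusted p = 0.00306 and 0.00133), and Pira2 rose by 1.34 in WT (adjusted p = 0.00159; 0.60 in Tim4KO cells, adjusted p = 0.134), and both belong to families of near-identical genes. Fcer1g, the Fc receptor gamma chain that is a further ITAM adaptor, had 689 ± 46.9 CPM in naive and 715 ± 48.3 CPM in challenged WT cells (SD, n = 3). Its log2 change was 0.05 in each genotype (SE 0.13, adjusted p = 0.77 and 0.822). The median of the list was -0.30 in WT and -0.58 in Tim4KO cells. The WT count of 5 was 3 without WT ID8 2, and the Tim4KO count of 2 was 5 without WT ID8 3 or with the background covariate, 7 in the fit to 2 groups and 4 with DESeq2 or upper-quartile scaling.

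Downstream of the adaptors, 5 of 27 ITAM signalling genes were higher and 0 lower in WT cells, and 1 was higher and 0 lower in Tim4KO cells, with medians of 0.04 and -0.04. The WT count of higher genes is close to the share over all genes (19.5%), and the 0 lower genes are below theirs (12.3%). In Tim4KO cells both counts are below the shares over all genes (11.5% higher, 5.06% lower). Lcp2 (SLP-76), a scaffold, rose by 0.67 in WT (adjusted p = 0.00863), a call lost in the WT fit with the replicate block (0.0529), beside 0.25 in Tim4KO cells (adjusted p = 0.345). Lat2, another scaffold, rose by 0.68 in WT and by 0.72 in Tim4KO cells (adjusted p = 0.00226 and 0.00302), and 36.3% of its exonic length overlaps Rfc2 on the opposite strand. Plcg2, a phospholipase, had 0.33 in Tim4KO cells (adjusted p = 0.0722) and rose by 0.43 in WT (adjusted p = 0.0123), a call lost without WT ID8 3 (adjusted p = 0.055) and in the WT fit with the replicate block (0.125). Syk, the kinase that binds the ITAM, had log2 changes of 0.20 (SE 0.13, adjusted p = 0.26) and 0.05 (SE 0.13, adjusted p = 0.846). The WT count of 5 was 1 in the WT fit with the replicate block, 2 in the fit to 2 groups and 8 with DESeq2. It was 3 without WT naive 1 or WT ID8 2 and 8 without WT ID8 1. The Tim4KO count was 3 without Tim4KO naive 1 or WT ID8 3, and up to 6 in other alternatives.

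Of 14 tested ITIM receptors and phosphatases, 6 were higher and 1 lower in WT cells, and 4 higher and 2 lower in Tim4KO cells, with medians of 0.17 and 0.06. Lair1, an inhibitory collagen receptor, rose by 1.40 and 0.92 (adjusted p = 0.000115 and 0.00424). Ptpn11 (SHP-2) rose by 0.63 in WT (adjusted p = 0.000878) and had 0.34 in Tim4KO cells (adjusted p = 0.0529). Sirpa rose by 0.60 and 0.45 (adjusted p = 0.00327 and 0.0276) and Clec12a by 1.35 and 1.21 (adjusted p = 0.00605 and 0.0214). Fcgr2b, the inhibitory Fc receptor, fell by 0.61 in WT and fell by 0.91 in Tim4KO cells (adjusted p = 0.016 and 0.00259). The WT count of 7 was 4 in the WT fit with the replicate block or the fit to 2 groups, and 3 with the background covariate. The Tim4KO count of 6 was 3 without Tim4KO naive 2, Tim4KO naive 3 or Tim4KO ID8 1, and 2 without Tim4KO ID8 2 or Tim4KO ID8 3.

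Of 9 tested of 12 TREM ligands and shedding enzymes, 5 were higher in WT and 1 in Tim4KO cells, with 0 lower and medians of 0.44 and 0.24. Adam10 and Adam17, the proteases that shed TREM2, rose by 0.56 and 0.66 in WT (adjusted p = 0.00988 and 0.0053) and had 0.16 and 0.32 in Tim4KO cells (adjusted p = 0.492 and 0.184). The WT call of Adam17 was lost in the WT fit with the replicate block (0.0582), and that of Adam10 without WT naive 1 (0.0506) and with upper-quartile scaling (0.0551). Aph1a and Ncstn belong to gamma-secretase, which cleaves the receptor stub. Aph1a, of whose exonic length 12.9% overlaps Car14 on the opposite strand, rose by 0.85 in WT (adjusted p = 0.00167) beside 0.36 in Tim4KO cells (adjusted p = 0.154). Ncstn rose by 0.44 and 0.38 (adjusted p = 0.0149 and 0.0464), and its Tim4KO call was kept in 7 alternatives and lost in 13. The WT count of 5 was 3 with upper-quartile scaling, and 2 without WT naive 1, in the WT fit with the replicate block, in the fit to 2 groups and with the background covariate. The Tim4KO count of 1 was 2 without WT ID8 3 or in the fit to 2 groups. It was 0 with RLE or upper-quartile scaling, no filter or the covariate, and without any 1 of WT naive 2, WT naive 3, WT ID8 1 and the 6 Tim4KO libraries.

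Genes of lipid-associated macrophages, a state known to depend on TREM2, moved in both directions. Of 21 tested of 22, 7 were higher and 3 lower in WT, and 6 higher and 3 lower in Tim4KO cells, with medians of 0.26 and 0.24. One of the 21, Cst7, passed the filter only through challenged libraries, and without it the counts were the same. Apoe, a lipid carrier and TREM2 ligand, fell by 1.86 in WT and fell by 1.32 in Tim4KO cells (adjusted p = 3.7e-06 and 0.000126), from 21600 ± 1570 to 5950 ± 1410 CPM in WT (SD, n = 3). Gpnmb rose by 2.28 and 2.61 (adjusted p = 3.47e-05 and 2.91e-05), and Lgals3, which encodes galectin-3, rose by 1.37 and 1.33 (adjusted p = 1.32e-05 and 3.49e-05).

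Inflammatory genes whose induction TREM1 is known to amplify were mostly higher in WT. Of 14 tested, 11 were higher and 1 lower in WT, and 3 higher and 1 lower in Tim4KO cells, with medians of 2.18 and 1.02 beside -0.04 and -0.05 over all genes. Cxcl3 and Ptgs2 passed the filter only through challenged libraries, and without them 9 of 12 were higher in WT and 3 of 12 in Tim4KO cells, with medians of 2.16 and 0.83. Il6 rose by 2.87 and 2.01 (adjusted p = 6.32e-05 and 0.002), from 3.53 ± 1.46 to 26.5 ± 8.35 CPM in WT (SD, n = 3) and from 2.31 ± 1.02 to 9.48 ± 1.73 CPM in Tim4KO cells. The chemokine gene Ccl4 rose by 3.16 and 2.08 (adjusted p = 5.38e-05 and 0.00318), and Ccl3 rose by 2.19 in WT (adjusted p = 0.00319) beside 0.93 in Tim4KO cells (adjusted p = 0.2). The inflammasome gene Nlrp3 fell by 0.88 in WT and fell by 0.94 in Tim4KO cells (adjusted p = 0.00624 and 0.00783). In the genotype and interaction comparisons 0 genes of these 7 lists were called by edgeR, so the unequal counts in the 2 genotypes were not shown to differ. Between genotypes in ID8 cells, 9 of the 14 inflammatory genes, Cxcl3 and Ptgs2 among them, had an unadjusted p under 0.05 by edgeR. Over all 15943 genes 1935 did. The median of the 14 was -1.36 there (Tim4KO minus WT). Below that p were 0 of the 14 in naive cells and 1 in the interaction.

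**Figure D4:**
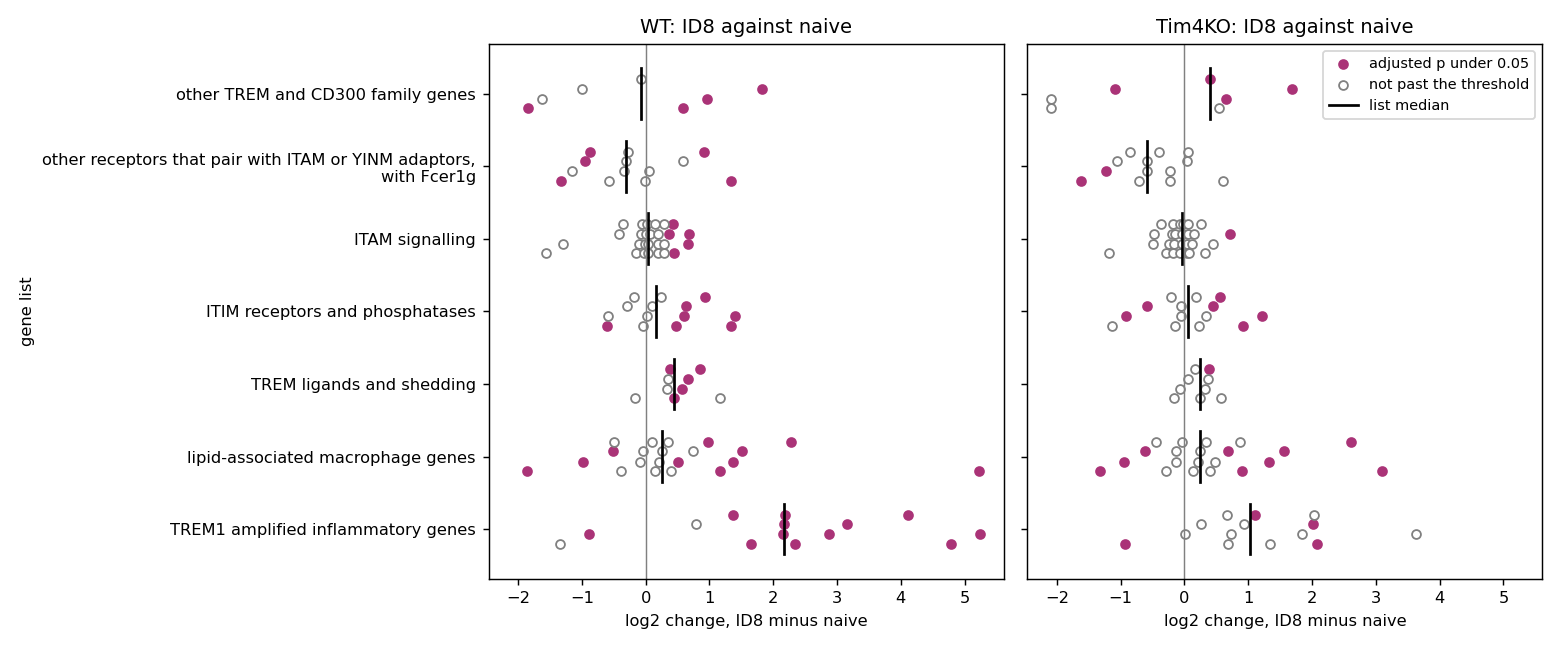
Log2 change from naive to ID8 of each tested gene in the 7 lists, in WT on the left and in Tim4KO on the right; filled points passed an adjusted p of 0.05 and black bars are list medians. The inflammatory list lies mostly above 0, with medians of 2.18 and 1.02, and the other 6 medians lie between -0.58 and 0.44.

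Trem1 is also a gene of neutrophils, so markers of other cells are given beside its rise. The 13 neutrophil markers summed to 188 to 263 CPM in WT naive, 208 to 284 CPM in Tim4KO naive, 80.4 to 121 CPM in WT ID8 and 113 to 125 CPM in Tim4KO ID8 libraries. Most of that sum was Csf3r, which fell by 1.51 in WT and by 1.44 in Tim4KO cells (edgeR adjusted p = 1.68e-05 and 4.8e-05). Mmp9 also fell, by 0.85 and 1.30 (adjusted p = 0.04 and 0.00823). The granule and lineage genes Ly6g, Camp, Ngp, Ltf, Elane and Mpo had group means under 1 CPM in all 4 groups, and Ngp had 0 counts in the 3 WT ID8 libraries. S100a8 went the same way as Trem1 and rose by 1.69 in WT and 1.37 in Tim4KO cells (edgeR adjusted p = 0.00122 and 0.00802). Its mean was 5.53 CPM in naive and 18 CPM in challenged WT cells, and 6.14 CPM and 15.9 CPM in Tim4KO cells. Retnlg rose by 3.20 in WT and 3.27 in Tim4KO cells (adjusted p = 0.0334 and 0.0173). It had 0.238 and 2.11 CPM in WT, and 0.79 and 8.69 CPM in Tim4KO cells. S100a9 rose by 3.40 in WT (adjusted p = 0.0206), from a mean of 0.2 to 2.14 CPM, and had 0.512 and 1.37 CPM in Tim4KO cells (log2 change 1.23, adjusted p = 0.384). Cxcr2 had 0.277 and 1.52 CPM in WT and 0.364 and 1.15 CPM in Tim4KO cells (adjusted p = 0.112 and 0.387). The part of cells with these transcripts in the rise of Trem1 was not tested.

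**Figure D5:**
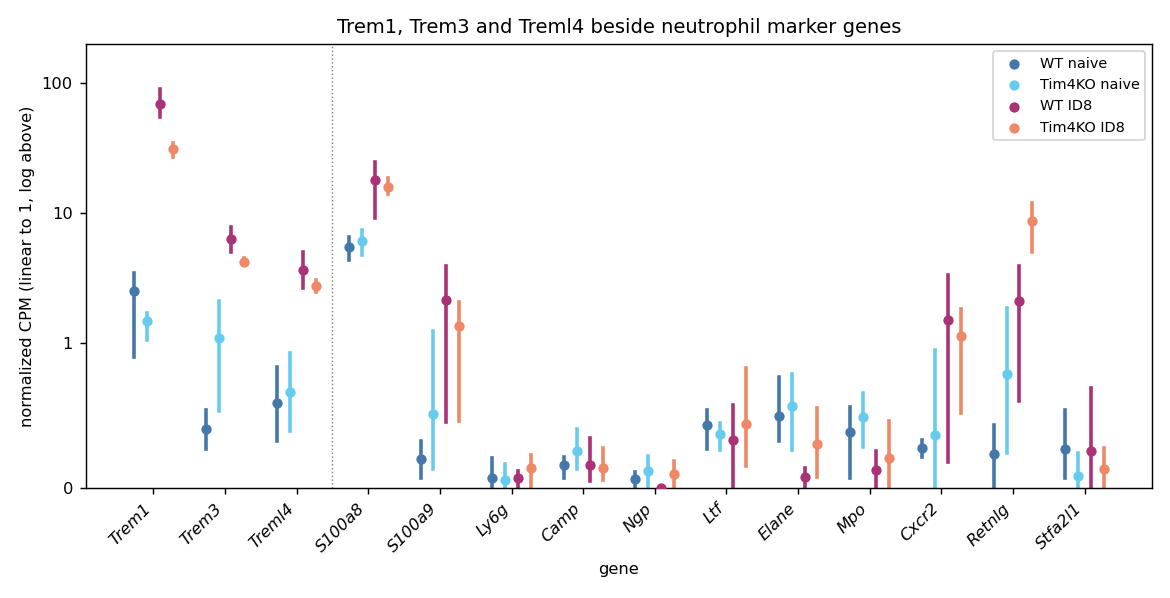
Points are mean normalized CPM and bars the range over 3 libraries. Trem1, Trem3 and Treml4 are on the left and 11 neutrophil markers on the right. The axis is linear up to 1 CPM and logarithmic above. Csf3r and Mmp9, which were lower after challenge in both genotypes, are not drawn. Ly6g, Camp and Ngp stay under 1 CPM in all 4 groups, while S100a8 reaches 18 CPM in WT ID8 cells beside 68.6 CPM for Trem1.

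Markers of further cell types were summed per library as well. The sums follow their most abundant genes, and their part in the results was not tested. In naive WT, naive Tim4KO, challenged WT and challenged Tim4KO libraries in turn, the 6 monocyte markers summed to 496 to 769, 801 to 1260, 164 to 276 and 227 to 303 CPM. F13a1 made up 61.8 to 91.6% of that sum in the 4 groups and fell by 2.07 in WT and fell by 2.20 in Tim4KO cells (adjusted p = 0.00189 and 0.00267). Other monocyte markers went the other way: Vcan rose by 2.91 and 1.76 (adjusted p = 1.22e-05 and 0.000911), and Ly6c2 rose by 1.84 in WT (adjusted p = 0.0238). The 12 markers of small peritoneal macrophages and dendritic cells summed to 304 to 570, 344 to 441, 149 to 472 and 319 to 398 CPM. The 12 markers of large peritoneal macrophages summed to 62400 to 68700, 60300 to 70300, 27000 to 31000 and 32300 to 34100 CPM. Lyz2 made up 42 to 68.9% of that sum and fell by 1.84 and fell by 1.67 in the 2 genotypes (adjusted p = 1.66e-06 and 6.56e-06), as did Alox15, which fell by 1.04 and fell by 0.55 (adjusted p = 0.000123 and 0.015). Itgam rose by 0.72 and 0.71 (adjusted p = 0.00168 and 0.00364), Icam2 rose by 0.51 and 0.89 (adjusted p = 0.0244 and 0.0016), and Adgre1 rose by 0.59 in WT (adjusted p = 0.0264). The 7 B cell markers reached at most 22.9 CPM in any library, the 11 T and NK cell markers 11.3 CPM, the 7 mast cell markers 39.9 CPM, the 5 eosinophil markers 5.63 CPM and the 10 tumour or mesothelial markers 27.6 CPM, each of these maxima but that of the T and NK list in a naive library.

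By Pearson correlation of log2 normalized CPM over the 12 libraries, the 5 genes most like Trem1 among 9704 compared were Slc16a3 (r = 0.989), Pgk1 (0.987), Cdk4 (0.987), Dnajc10 (0.986) and Lgals3 (0.985). Slc16a3 encodes a lactate exporter and Pgk1 a glycolytic enzyme. Mean Slc16a3 was 31.8 CPM in naive WT, 25.3 CPM in naive Tim4KO, 154 CPM in challenged WT and 113 CPM in challenged Tim4KO cells. The genes most like Trem2 were Sirt6 (r = 0.961), Nmnat3 (0.871), Ebpl (0.83), Tab1 (0.814) and Eid2 (0.809). Mean Sirt6 ran in the same order of groups at 5.39, 4.33, 5.27 and 6.32 CPM. These correlations describe libraries that share group, depth and scaling, and carry no test.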

How the data were processed

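Per the labels' protocols, sorted macrophages gave RNA by the RNeasy micro kit, and SMART-Seq mRNA LP was the library kit. The authors deposited 1 table of raw counts, with 57010 Ensembl genes in rows and 12 libraries in columns. That the counts are raw was read from their values. The submitters' processing notes name FastQC, STAR 2.5 and the builds mm10 and GRCm39, with no role. The counting program, the annotation and the handling of strand are not given in the sources used here. All columns were matched to libraries by name, and 0 were left out. GENCODE vM21 named 52029 of the 57010 identifiers and gave exonic lengths. No exon of the 10 genes overlaps another gene there.

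One edgeR 4.0.16 quasi-likelihood model (R 4.3.3) with 1 mean per group took in all 12 libraries, after filterByExpr and TMM scaling, with two-sided tests of 5 comparisons. Calls needed an adjusted p under 0.05, by the Benjamini-Hochberg method over all 15943 tested genes. SE was derived from the log2 change and the F statistic. Levels are TMM-normalized CPM, as mean ± SD. DESeq2 1.42.0 and limma 3.58.1 (voom) were alternatives, beside other scalings, no filter, fits to 2 groups, a replicate block, a covariate of background reads and leaving out each library. The steps were tested on simulated data.

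Library totals ran from 7358559 to 23170244 counts. Deviations from the group mean in same-numbered WT libraries had correlations of 0.423, 0.103 and 0.191 between naive and ID8 over genes. No label says what a number marks, and libraries with different numbers were not compared. The reported tests did not pair libraries. The replicate number entered as a block in alternative fits only. Other group pairs had correlations from -0.498 to 0.22.

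The 10 genes, the lists, written from general knowledge, and the rules were chosen with earlier results of these data known. An item of the ITAM signalling list is not reported here and was left out of that list's counts. Of each list up to 3 called genes with the smallest p were named per challenge comparison, and every called gene in genotype comparisons. The 5 genes most like Trem1 and Trem2 had a mean count of at least 50 and no gene-model symbol, with a prior count of 2. Syk, Fcer1g and the named marker genes were chosen after their values were seen.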

Additional observations from a re-analysis of the deposited data

How the results depend on the processing

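Of the changes of the 9 tested genes, 848 values from alternatives kept their direction and their side of the threshold, 15 lost the call, 8 gained it and 26 turned the sign, each of the last uncalled in both. For the genes named from lists and Timd4, 747 kept the call and 54 lost it, among them Cd300c2 in Tim4KO cells in 14 of 20 alternatives and Ncstn in Tim4KO cells in 13 of 20. Over the alternatives, the count of called genes among the 9 ran from 5 to 7 for challenge in WT cells, with 7 reported. It was 5 without WT naive 2 or WT ID8 1. In Tim4KO cells it ran from 4 to 7, with 6 reported. It was 4 without Tim4KO naive 1, Tim4KO naive 2 or Tim4KO ID8 3. These counts include Trem3 and Treml4, which passed the filter only through the challenged libraries where they are high. In the analysis reported, 31.8% of all genes were called in WT and 16.6% in Tim4KO cells. Tim4KO against WT in ID8 cells gave 0 in the analysis reported, and 1 with no filter on low counts, 1 with DESeq2, and 0 to 1 when leaving out 1 library (1 without WT naive 3 and 1 without WT ID8 3). Over all genes, 8 were called in this comparison without WT naive 3 and 997 without WT ID8 3. The cause was not tested.

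Sign changes touched values near 0. For Treml4 in naive cells (Tim4KO against WT) the value was -0.091 with limma voom, -0.046 with the background covariate and -0.23 to 0.37 when leaving out 1 library, below 0 without WT naive 1 or Tim4KO naive 2. Leaving out 1 library, Cd300a and Cd300lb in naive cells ran from -0.0215 to 0.15 and from -0.01 to 0.18, below 0 without WT naive 1. In ID8 cells (Tim4KO against WT) Tyrobp and Cd300a ran from -0.026 to 0.38 and from -0.077 to 0.20, below 0 without WT ID8 1. Trem2 in the WT challenge was 0.034 with the background covariate. Cd300a in the WT challenge was -0.0148 with RLE factors, -0.0145 with DESeq2, -0.21 with upper-quartile scaling, -0.062 in the fit to 2 groups, -0.25 with the covariate and -0.058 to 0.25 when leaving out 1 library, below 0 without WT naive 1, WT ID8 2 or WT ID8 3. In the Tim4KO challenge Cd300a was -0.049 with upper-quartile scaling and -0.026 with the covariate. Its interaction was -0.029 with no filter and -0.16 to 0.13 when leaving out 1 library, below 0 without WT naive 2, WT naive 3, Tim4KO naive 3, WT ID8 1 or Tim4KO ID8 1. The cause was not tested.

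With the replicate number as a block, 0 members were called for genotype in naive cells, 0 in ID8 cells and 0 for the interaction. For challenge 7 were called in WT and 6 in Tim4KO cells. Both counts include Trem3 and Treml4, which passed the filter only through the challenged libraries where they are high. The counts of members were the same without the block. Over all genes, alternatives other than leaving out 1 library called 3081 to 5799 in WT and 2329 to 3827 in Tim4KO cells. The block is among these alternatives. In the WT libraries alone with the replicate block, 7 were called, Cd300a was -0.075, and 3081 of all genes passed against 5067. Beside the list counts given above, the block changed no other call of the 9 genes.

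Over all genes, upper-quartile scaling moved the median WT change from -0.04 to -0.28 and the share of higher calls from 61.3% to 33.9%, and in Tim4KO cells the median from -0.05 to -0.17 and the share from 69.5% to 48.7%. The 9 genes then split 4 higher and 3 lower in WT, as with TMM, and 4 higher and 2 lower in Tim4KO cells. Trem3 and Treml4 are among the higher ones in both. Genes called over all alternatives numbered 1 to 59 and 1 to 997 for genotype in naive and ID8 cells (997 without WT ID8 3), 3081 to 7230 and 1222 to 3827 for challenge in WT and Tim4KO cells, and 0 to 368 for the interaction (368 without WT ID8 3). With upper-quartile factors mean Tyrobp in WT naive was 1880 CPM and mean Cd300lb in WT ID8 179 CPM. Depth limited Treml2, and Trem3 and Treml4 in naive cells.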
